A study of Mus musculus with 33 samples.

Results

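The 10 genes described here carry out MHC class I and class II antigen presentation. They were taken as a list of symbols, of 38355 genes in the count files of aged mice and 40678 loci in the FPKM files of young mice, and all 10 were found in both. H2-K1 and H2-D1 encode the classical class I heavy chains, and B2m encodes the light chain (beta-2 microglobulin) that both need to reach the cell surface. Tap1 encodes one chain of the transporter that carries peptides into the endoplasmic reticulum, and Psmb8 and Psmb9 encode catalytic subunits of the immunoproteasome, which cuts the proteins of the cell into such peptides. H2-Aa and H2-Ab1 encode the alpha and beta chains of the class II molecule H2-A, H2-Eb1 encodes the beta chain of the class II molecule H2-E, and Cd74 encodes the invariant chain that escorts class II molecules to the endosome.

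Class I molecules show peptides from inside the cell to CD8 T cells, and nearly all nucleated cells can make them, although neurons carry little. Class II molecules show peptides from engulfed material to CD4 T cells and are made mainly by professional antigen-presenting cells. In the brain parenchyma class II is best known from microglia, which raise these genes around amyloid plaques and after exposure to interferon-gamma.

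RNA was sequenced from CA1, the hippocampal field dissected from each mouse, in a pair of experiments. The aged mice, 8 to 10 months old, were APP/PS1-21 mice in a C57B/6 background (APP mice) that had received JQ1, an inhibitor of BET bromodomain proteins, at 50 mg/kg for 10 days (n = 6) or vehicle with 10% DMSO for 10 days (n = 6), and wild-type (WT) mice that had received the same vehicle for 10 days (n = 4). The young mice were WT C57B/6JRj mice, 3 months old, that had received JQ1 at 50 mg/kg (n = 8) or vehicle with 10% DMSO (n = 8) for 13 days. Aged WT mice with JQ1 were not among the groups, so JQ1 was measured in aged mice only on top of the transgenes. In the APP/PS1-21 line the neuronal Thy1 promoter drives the transgenes, mutant APP among them, so they are made by neurons and not by the glia around them. Per the methods of the study the young mice were males and the behavioural work on the APP line used females. The strain label of the aged WT mice also names the APP/PS1-21 line, and their group was taken from the title. WT vehicle replicate 2 was not analysed here.

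Between 14605459 and 25339482 reads lay on genes in each aged library. Levels are given as CPM, the reads of a gene for every 1e+06 reads on genes, and a floor of 3 reads corresponded to 0.118 to 0.205 CPM. The library labelled APP JQ1 replicate 4 lacked the transgene signal of its group. Thy1 stood at 817 CPM there, against 820 to 1063 CPM in the WT vehicle libraries and 1610 to 2363 CPM in the other APP libraries, and App (1775 CPM) also lay below the WT range. The main tests and counts of the APP JQ1 group are therefore also given without it. Albumin (Alb), a liver transcript, exceeded 100 CPM in 4 libraries: APP JQ1 3 (1757 CPM), APP JQ1 4 (1267 CPM), APP vehicle 4 (519 CPM) and WT vehicle 1 (145 CPM). Markers of CA1 pyramidal neurons summed to between 1906 and 2801 CPM in the aged libraries.

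Because several of the members are known to be switched on together through short promoter elements, the stretches of 200 bases that end at the transcription start are shown for the 4 members in which the same pair of elements was found at nearly the same spacing. Letters are RefSeq sequence of build GRCm38.p6, 5′ to 3′ on the strand of the gene. Capitals mark a TGACG core (the X2 box or CRE-like core, bound by CREB-type factors) or a CCAAT core (the Y box, bound by NF-Y), on either strand. The longer capital runs further 5′ mark NF-kB sites and, in B2m alone, a match to TTTCNNTTTC, the core of an interferon-stimulated response element. Looser forms of that element were not searched for, so its absence from the other stretches is not shown.
B2m, chr2:122147487-122147686, strand +: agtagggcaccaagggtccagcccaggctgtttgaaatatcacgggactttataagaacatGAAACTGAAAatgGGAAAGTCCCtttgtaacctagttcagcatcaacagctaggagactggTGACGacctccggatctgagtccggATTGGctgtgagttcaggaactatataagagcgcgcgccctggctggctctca
H2-K1, chr17:34000348-34000547, strand -: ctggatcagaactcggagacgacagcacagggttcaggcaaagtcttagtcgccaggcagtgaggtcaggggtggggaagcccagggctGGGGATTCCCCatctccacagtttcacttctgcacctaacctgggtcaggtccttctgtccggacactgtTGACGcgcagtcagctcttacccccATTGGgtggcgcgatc
H2-D1, chr17:35262894-35263093, strand +: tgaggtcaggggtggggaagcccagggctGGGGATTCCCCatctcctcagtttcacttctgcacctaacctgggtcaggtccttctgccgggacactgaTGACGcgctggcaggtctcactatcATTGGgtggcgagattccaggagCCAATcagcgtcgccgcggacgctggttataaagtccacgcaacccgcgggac
H2-Aa, chr17:34287824-34288023, strand -: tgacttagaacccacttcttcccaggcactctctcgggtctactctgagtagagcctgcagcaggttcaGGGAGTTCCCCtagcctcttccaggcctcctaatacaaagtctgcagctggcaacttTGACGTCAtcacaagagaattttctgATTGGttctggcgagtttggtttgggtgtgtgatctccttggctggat

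A TGACG core lay 25 bases 5′ of a CCAAT core in H2-K1, H2-D1 and B2m, and 26 and 23 bases 5′ of it in H2-Aa, where 2 TGACG cores overlap. Counted back from the start, the TGACG core of B2m began at base 78 and its CCAAT core at base 53. The same pair began at bases 41 and 16 in H2-K1 (55 and 30 from its other RefSeq start) and at bases 101 and 76 in H2-D1. RefSeq windows of 300 bases (250 before the start and 50 after it) were found for 8 of the 10 members, in 9 windows, and not for H2-Ab1 or Cd74. Of all 32851 such windows, 37.4% held a CCAAT core, 20.8% a TGACG core, 8.46% an NF-kB site and 3.44% an interferon-stimulated response element (TTTCNNTTTC), with either strand counted. A TGACG core 20 to 30 bases 5′ of a CCAAT core was found in 0.794% of them (261 windows). NF-kB sites lay in the windows of B2m, H2-K1, H2-D1 and H2-Aa. Tap1 and Psmb9, which are read from opposite strands, share 275 bases of their windows with starts 226 bases apart, and each had 1 CCAAT and 1 TGACG core outside that spacing. H2-Eb1 had 2 CCAAT cores, and the window of Psmb8 held none of these 4 elements. That window of Psmb8 (chr17:34197945-34198244) lies 3′ of the start of the gene span given below (34197721). The windows of H2-D1 and Psmb9 also lie 3′ of the starts of their gene spans (35262730 and 34187764). Sequence 5′ of these gene starts was not searched. These matches are letters in a window and show no binding.

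**Figure D1:**
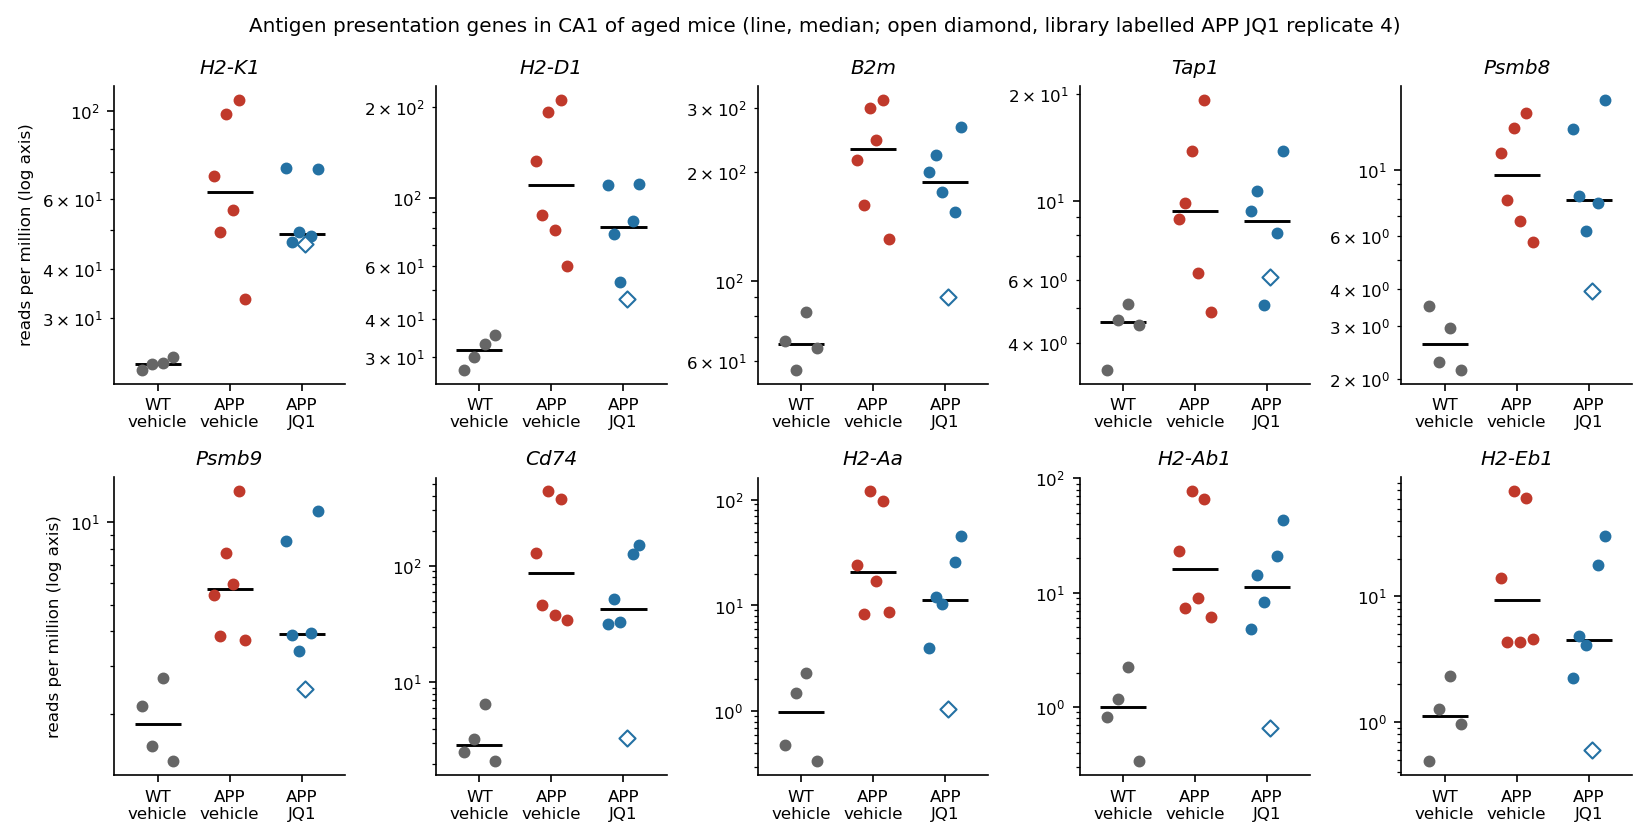
Level of each member in every aged library, in CPM on log axes, for WT vehicle (n = 4), APP vehicle (n = 6) and APP JQ1 (n = 6). Points are mice, lines are group medians and the open diamond is APP JQ1 replicate 4. APP vehicle mice lie above every WT mouse for 9 members (Tap1 is the exception), and APP vehicle and APP JQ1 mice overlap for all 10.

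The first comparison asked how antigen presentation genes differ between APP and WT mice under the same vehicle. All 10 members had higher levels in APP vehicle than in WT vehicle mice, by 2.37-fold (Tap1) to 48.4-fold (Cd74), and 7 of 10 rose past an adjusted p of 0.05 in edgeR's quasi-likelihood test. Over all genes tested, 2.57% were called in that comparison, and 2.49% were called higher. The groups did not overlap for 9 of 10 members, against 4.75% of all genes tested. Without APP JQ1 replicate 4, which enters the shared estimate of spread, 9 of 10 members were called, against 3.55% of all genes, and each of 2 other libraries, APP vehicle 6 and APP JQ1 6, also gave 9 when it was left out. Calls fell with any WT mouse left out, over all genes as well: 3 members (154 genes in all) were called without WT vehicle 1, 3 (186 genes) without WT vehicle 3, 4 (244 genes) without WT vehicle 4 and 4 (214 genes) without WT vehicle 5, against 436 genes with all libraries. With all 4 libraries of high albumin left out 5 members were called, against 2.30% of all genes. Over all genes 422 were called higher and 14 lower, and with GC content and length in the fit 374 and 81, where 7 members were called.

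The class I heavy chains were low and even in WT mice. H2-K1 (ENSMUSG00000061232, chr17:33996017-34000347, minus strand) stood at 22.2, 22.97, 23.1 and 23.96 CPM in the 4 WT vehicle mice. In APP vehicle mice its lowest level was 33.4 CPM, its median 62.4 CPM and its highest 106.9 CPM. Every APP vehicle mouse was therefore above every WT mouse, although the APP mice themselves spanned 3.20-fold. H2-K1 rose by 1.57 ± 0.26 on the log2 scale (SE; 2.97-fold, 95% interval 2.03 to 4.32, edgeR adjusted p = 0.00828). H2-D1 (ENSMUSG00000073411, chr17:35262730-35267499, plus strand) stood at 27.1, 30.02, 33.1 and 35.3 CPM in WT mice and at 59.7, 111 and 212 CPM (lowest, median, highest) in APP vehicle mice. The groups did not overlap, and H2-D1 rose by 2.01 ± 0.36 on the log2 scale (4.04-fold, 2.37 to 6.89, edgeR adjusted p = 0.00922). As class I genes are near copies of each other, 8.11% of the 50-base windows of the H2-K1 transcript and 14.3% of those of the H2-D1 transcript also occur in other genes, so part of their reads could be assigned elsewhere or dropped.

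B2m (ENSMUSG00000060802, chr2:122147686-122153083, plus strand), which shares no such window with another gene, rose with the heavy chains it binds. It stood at 56.7, 65.3, 68.3 and 82.2 CPM in WT mice and at 131, 231 and 317 CPM (lowest, median, highest) in APP vehicle mice, with no overlap. B2m rose by 1.74 ± 0.27 on the log2 scale (3.34-fold, 2.23 to 5.0, edgeR adjusted p = 0.00828). Per kilobase of exon, the ratio of B2m to the sum of both heavy chains had a mean of 3.97 in WT vehicle, 3.92 in APP vehicle and 4.33 in APP JQ1 mice, and the ranges of the 3 groups overlapped. The ratio of H2-D1 to H2-K1 ranged from 1.39 to 1.68 in WT vehicle and from 1.59 to 2.26 in APP vehicle mice.

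The genes that supply peptides to class I were low in WT mice. Psmb8 (ENSMUSG00000024338, chr17:34197721-34201454, plus strand) stood at 2.14, 2.27, 2.96 and 3.498 CPM in WT mice and at 5.72, 9.64 and 15.4 CPM (lowest, median, highest) in APP vehicle mice. No APP vehicle mouse fell within the WT range, and Psmb8 rose by 1.89 ± 0.37 on the log2 scale (3.72-fold, 2.16 to 6.41, edgeR adjusted p = 0.00993). Psmb9 (ENSMUSG00000096727, chr17:34181987-34187764, minus strand) stood at 1.34, 1.53, 2.14 and 2.70 CPM in WT mice and at 3.71, 5.69 and 13.0 CPM in APP vehicle mice, again apart. It rose by 1.76 ± 0.43 on the log2 scale (1.81- to 6.37-fold by its interval, edgeR adjusted p = 0.0353). Tap1 (ENSMUSG00000037321, chr17:34187553-34197225, plus strand) was the member whose groups overlapped: it stood at 3.35, 4.49, 4.63 and 5.15 CPM in WT mice and at 4.89, 9.37 and 19.3 CPM in APP vehicle mice, of which replicate 6 lay within the WT range. Its difference of 1.25 ± 0.33 on the log2 scale (2.37-fold, 1.46 to 3.85) missed the threshold at edgeR adjusted p = 0.0557 and passed it without APP JQ1 replicate 4 (0.0469). Exons of Tap1 and Psmb9 overlap on opposite strands over 212 bases, and those of Psmb8 overlap the antisense gene Gm20496 over 498 bases, so reads there may be uncertain.

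Psmb8 and Psmb9 take the places of Psmb5 and Psmb6 in the proteasome, so each was also set against its constitutive counterpart, per kilobase of exon. The ratio of Psmb8 to Psmb5 was 0.0193 to 0.0329 in WT vehicle and 0.0548 to 0.134 in APP vehicle mice. The ratio of Psmb9 to Psmb6 was 0.00458 to 0.0127 in WT vehicle and 0.0160 to 0.0431 in APP vehicle mice. Neither pair of ranges overlapped, and in both groups the inducible transcript was well below the constitutive one.

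Class II genes differed most between the genotypes and most between mice. Cd74 (ENSMUSG00000024610, chr18:60803848-60812652, plus strand) stood at 2.10, 2.53, 3.30 and 6.48 CPM in WT mice. In APP vehicle mice it stood at 34.6 CPM at the lowest, 87.2 CPM at the median and 438 CPM at the highest. Every APP vehicle mouse exceeded every WT mouse, and the APP vehicle mice spanned 12.7-fold among themselves. Cd74 rose by 5.596 ± 1.22 on the log2 scale (48.4-fold, 7.78 to 301, edgeR adjusted p = 0.0272). H2-Aa (ENSMUSG00000036594, chr17:34282744-34287823, minus strand) stood at 0.34, 0.49, 1.48 and 2.32 CPM in WT mice and at 8.38, 20.7 and 121 CPM (lowest, median, highest) in APP vehicle mice. The 2 lowest WT values rest on few reads, the groups did not overlap, and H2-Aa rose by 5.30 ± 1.27 on the log2 scale (39.5-fold, 5.89 to 264, edgeR adjusted p = 0.0442).

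The beta chains had the same order of groups but did not pass the threshold. H2-Ab1 (ENSMUSG00000073421, chr17:34257689-34269419, plus strand) stood at 0.34, 0.83, 1.18 and 2.23 CPM in WT mice and at 6.11, 16.01 and 77.6 CPM in APP vehicle mice, without overlap. Its difference was 4.77 ± 1.203 on the log2 scale (27.2-fold, 4.52 to 164, edgeR adjusted p = 0.0557, and 0.0271 without APP JQ1 replicate 4). H2-Eb1 (ENSMUSG00000060586, chr17:34305867-34316674, plus strand) stood at 0.49, 0.97, 1.28 and 2.32 CPM in WT mice and at 4.33, 9.30 and 68.9 CPM in APP vehicle mice. These groups did not overlap either, and the difference of 4.34 ± 1.29 on the log2 scale (20.3-fold, 2.94 to 140) had an edgeR adjusted p of 0.115, or 0.0832 without APP JQ1 replicate 4. DESeq2, the other count test, called all 10 members, against 4.22% of the genes it tested. In exact two-sided permutation tests of CPM on each gene alone, p was 0.009524 for 9 members, which is the smallest that 6 mice against 4 allow, and 0.01905 for Tap1.

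**Figure D2:**
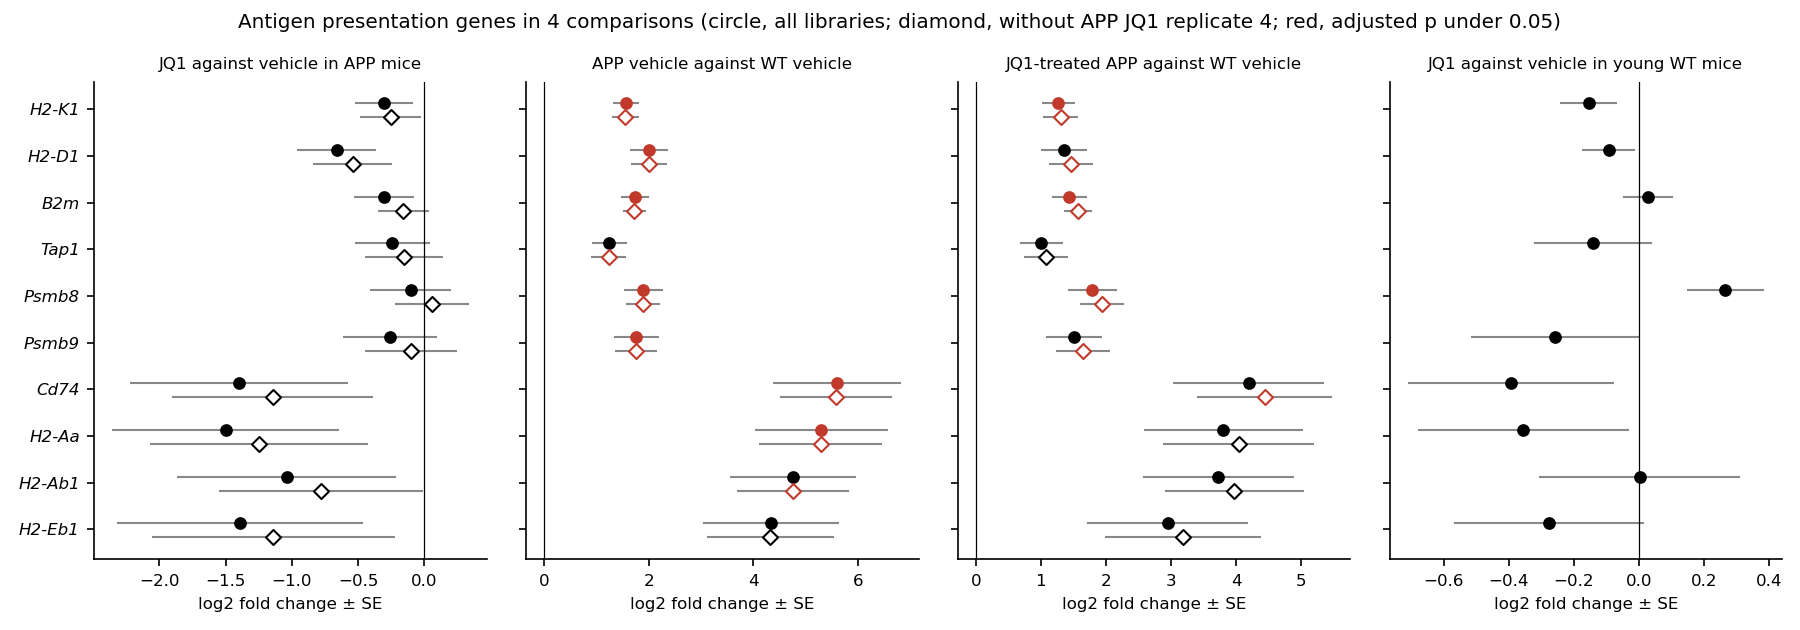
Log2 fold change of each member with its SE in 4 comparisons: APP vehicle against WT vehicle, JQ1-treated APP against WT vehicle, and JQ1 against vehicle first in APP mice, then in young WT mice. Circles use all libraries, diamonds leave out APP JQ1 replicate 4, and red marks an adjusted p under 0.05. Members lie above 0 in both comparisons with WT and none is red in either comparison of JQ1 with vehicle.

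Levels were compared between genes per kilobase of exon (RPKM). In WT vehicle mice the order began with B2m (79.2 ± 12.3, SD, n = 4), H2-D1 (12.2 ± 1.39), H2-K1 (7.85 ± 0.24) and Cd74 (2.14 ± 1.18), and each of these was apart from its neighbour. The other 6 members lay between 0.304 (H2-Aa) and 0.805 (Tap1) RPKM on average, and each of these neighbours overlapped. In APP vehicle mice Cd74 (105 RPKM) took the second place after B2m (266 RPKM), ahead of H2-D1 (49.5 RPKM) and H2-K1 (23.4 RPKM), and the class II chains (12.2 to 13.4 RPKM) stood ahead of Psmb8 (3.01 RPKM), Tap1 (1.92 RPKM) and Psmb9 (1.805 RPKM). In that group every member overlapped its neighbour in the order. In APP JQ1 mice B2m (215 RPKM) was apart from Cd74 (39.5 RPKM), and all later neighbours overlapped. Without replicate 4 the order was the same, with B2m at 237 RPKM and Cd74 at 47.0 RPKM, again apart. Cd74 was 1.30 to 2.15 times the sum of the class II chains it escorts in WT vehicle mice and 2.20 to 3.72 times in APP vehicle mice, on this scale.

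The main question put to the APP mice was whether JQ1 changed gene expression relative to vehicle. None of the 10 members was called by edgeR, and none by DESeq2, and the groups overlapped for all 10. At an unadjusted p under 0.05, 1 member (H2-D1) was found by edgeR and 1 (H2-D1) by DESeq2, against 2987 of all 16962 genes in edgeR and 2922 of 14049 in DESeq2, and without APP JQ1 replicate 4 edgeR found 0 members. Of all genes tested, 1.08% were called by edgeR (184 of 16962) and 5.33% by DESeq2, 1% of the genes were higher without overlap and 1.12% lower without overlap. Without APP JQ1 replicate 4, 0.431% of all genes were called (73), and again none of the members, and none was called with the 4 libraries of high albumin left out, against 0.444% of all genes. Over all genes 105 were called higher and 79 lower, and with GC content and length in the fit 32 and 7. All 10 estimates were negative with all libraries, from -0.10 (Psmb8) to -1.50 (H2-Aa) on the log2 scale, with a median of -0.48, against -0.001 over all genes. Without APP JQ1 replicate 4 the median was -0.40, and 9 estimates were negative, from -0.10 (Psmb9) to -1.25 (H2-Aa), while that of Psmb8 was 0.06.

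H2-D1 had the smallest p. It stood at 46.4, 80.4 and 112 CPM (lowest, median, highest) in APP JQ1 mice, against 59.7, 111 and 212 CPM in APP vehicle mice, and APP JQ1 replicate 4 was the lowest of all 12. The difference was -0.66 ± 0.30 on the log2 scale (0.632-fold, 0.407 to 0.984), with an edgeR adjusted p of 0.265, and its exact permutation p was 0.1515. Without APP JQ1 replicate 4 it was -0.54 (edgeR adjusted p = 0.459). H2-K1 stood at 46.2, 48.9 and 71.7 CPM and B2m at 90.5, 188 and 267 CPM (lowest, median, highest) in APP JQ1 mice. H2-K1 lay inside the APP vehicle range in every JQ1-treated mouse and B2m in all but replicate 4, and both differed by 0.810-fold, with intervals of 0.590 to 1.11 and 0.578 to 1.14. Both intervals include no change, and without replicate 4 the folds were 0.840 (0.598 to 1.18) for H2-K1 and 0.895 (0.676 to 1.19) for B2m.

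The peptide supply genes differed least. In APP JQ1 mice Psmb8 stood at 3.92, 7.95 and 17.2 CPM, Psmb9 at 2.46, 3.91 and 10.95 CPM and Tap1 at 5.11, 8.76 and 13.8 CPM (lowest, median, highest). The highest Psmb8 level of all APP mice was that of APP JQ1 replicate 6, and the groups overlapped throughout. The differences were -0.10 ± 0.31 (Psmb8), -0.26 ± 0.36 (Psmb9) and -0.24 ± 0.28 (Tap1) on the log2 scale, with edgeR adjusted p from 0.704 to 0.894, and 0.06 ± 0.28, -0.10 ± 0.35 and -0.15 ± 0.29 without replicate 4. These were the only members whose sign turned when single libraries were left out.

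The class II genes had the largest estimates and the widest intervals. Cd74 stood at 31.4, 52.1, 32.7, 3.32, 127 and 151 CPM in APP JQ1 replicates 1 to 6 and at 129, 45.8, 438, 37.8, 375 and 34.6 CPM in APP vehicle replicates 1 to 6. Without the library labelled APP JQ1 4, at the WT level, the other 5 JQ1-treated mice lay between 31.4 and 151 CPM, where 4 of the 6 vehicle-treated mice also lay, and APP vehicle 3 and 5 stood far above both. The difference was -1.40 ± 0.82 on the log2 scale (0.379-fold, 0.111 to 1.29, edgeR adjusted p = 0.403), the exact permutation p was 0.2208, and without replicate 4 the difference was -1.14 ± 0.76. H2-Aa, with 1.063, 11.2 and 45.1 CPM (lowest, median, highest) in APP JQ1 mice, differed by -1.50 ± 0.86 (0.354-fold, 0.0985 to 1.27). H2-Ab1, with 0.66, 11.3 and 43.3 CPM, differed by -1.04 ± 0.83 (0.487-fold, 0.142 to 1.67). H2-Eb1, with 0.60, 4.47 and 29.99 CPM, differed by -1.39 ± 0.93 (0.381-fold, 0.0951 to 1.53). The lowest value of each of the 4 class II genes in APP JQ1 mice came from replicate 4, and each interval spans both a several-fold fall and a rise. Without that library the differences were -1.25 ± 0.82 (H2-Aa), -0.78 ± 0.77 (H2-Ab1) and -1.14 ± 0.92 (H2-Eb1). Over the 10 members the exact permutation p ran from 0.1515 to 0.6667, where 6 mice against 6 could reach 0.002165.

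JQ1-treated APP mice were also compared with WT vehicle mice, which differ from them in both genotype and drug. The 3 comparisons of aged mice share samples, so their values are given side by side and are not independent. H2-K1 (1.26 ± 0.25 on the log2 scale, 2.40-fold, edgeR adjusted p = 0.0178), B2m (1.44 ± 0.27, 2.71-fold; 0.0148) and Psmb8 (1.79 ± 0.37, 3.46-fold; 0.0186) rose past the threshold. These were 3 of 10 members, against 2.06% of all genes, and H2-K1, H2-D1, B2m and Psmb8 did not overlap with WT, against 2.33% of all genes. The other estimates were 1.35 (H2-D1), 1.004 (Tap1), 1.51 (Psmb9), 4.197 (Cd74), 3.80 (H2-Aa), 3.73 (H2-Ab1) and 2.95 (H2-Eb1). Without replicate 4, H2-D1 (1.46, edgeR adjusted p = 0.0276), Psmb9 (1.65; 0.0296) and Cd74 (4.44 ± 1.04, 21.7-fold; 0.0322) were called as well, which gave 6 of 10 against 3.84% of all genes, and 8 of 10 did not overlap with WT, against 5.51%. Tap1 (1.08), H2-Aa (4.04), H2-Ab1 (3.97) and H2-Eb1 (3.19) did not pass the test there. Calls fell here too with any WT mouse left out: with APP JQ1 replicate 4 in the fit, 1 member (153 genes in all) was called without WT vehicle 1, and 0 members (25, 30 and 11 genes) without WT vehicle 3, 4 and 5, against 349 genes with all libraries. With the libraries of high albumin left out it was 4, against 3.90% of all genes. Over all genes 327 were called higher and 22 lower, and with GC content and length in the fit 336 and 180. DESeq2 called 9 of 10, against 4.21% of all genes.

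**Figure D3:**
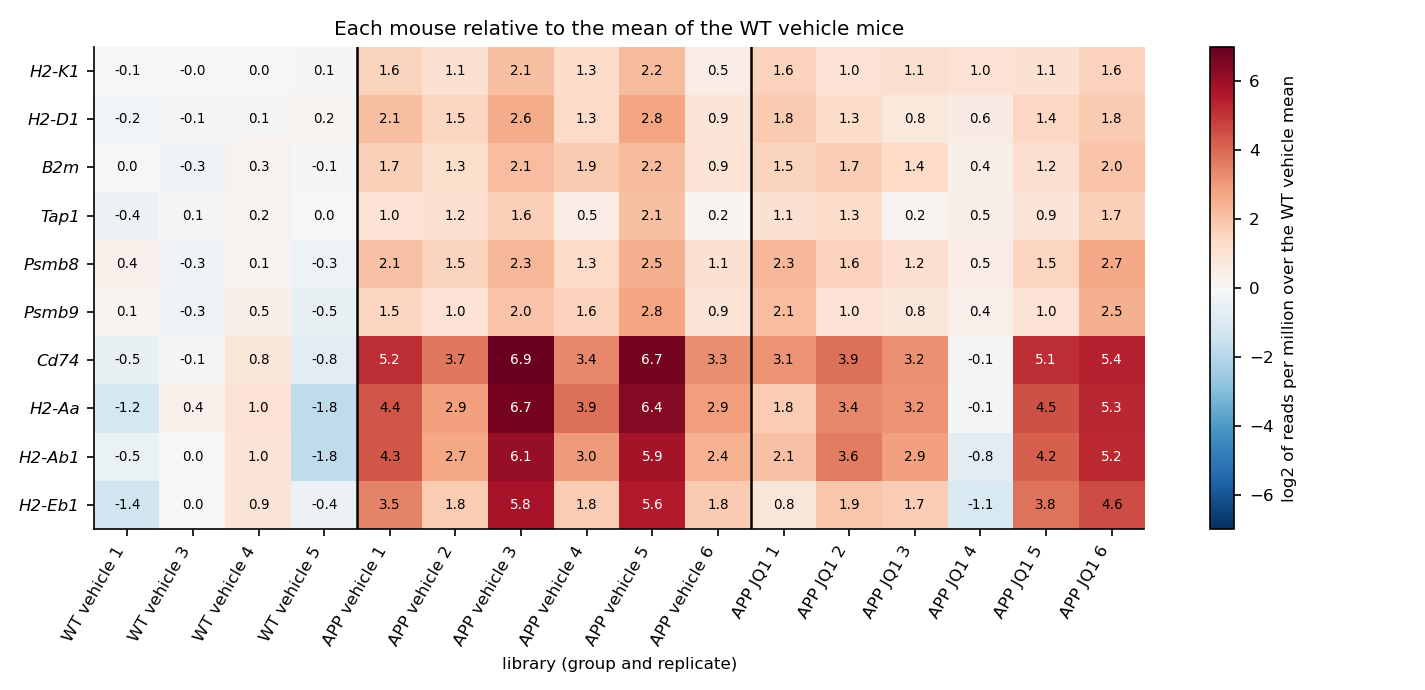
Log2 of the CPM of each member (rows) in each aged mouse (columns) over the mean of the WT vehicle mice. APP vehicle replicates 3 and 5 are highest for the class II rows, APP JQ1 replicate 4 sits near WT for Cd74, H2-Aa, H2-Ab1 and H2-Eb1, and the class I rows vary less.

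Within the APP vehicle group the members had much the same order of mice, while among JQ1-treated APP mice class I and class II genes differed in order. In WT vehicle mice the order differed between members: H2-K1 was highest in replicate 5, Psmb8 in replicate 1 and Cd74 in replicate 4. APP vehicle replicates 3 and 5 had the 2 highest levels in their group for all 10 members, with replicate 3 first for the 4 class II genes and replicate 5 first for the other 6. Replicate 6 was lowest for 8 of them. Among JQ1-treated APP mice, replicate 6 was highest for 9 members, and replicate 4 was lowest for 9. Replicate 1 was highest for H2-K1 and second for H2-D1, Psmb8 and Psmb9. For each of the 4 class II genes it was above replicate 4 only. The library labelled APP JQ1 replicate 4 was within the WT range for all 4 class II genes and Psmb9, and above the highest WT level for H2-K1 (46.2 CPM), H2-D1 (46.4 CPM), B2m (90.5 CPM), Tap1 (6.11 CPM) and Psmb8 (3.92 CPM). It also held 1267 CPM of albumin, whose source tissue, liver, makes class I, and the part of such RNA in these levels was not tested. Summed over the 4 class II genes, APP vehicle replicates 1 to 6 stood at 190, 65.9, 705, 68.1, 599 and 53.9 CPM and APP JQ1 replicates 1 to 6 at 42.4, 83.2, 55.5, 5.65, 191 and 270 CPM, so that a few mice in each group held most of the class II signal. Among the WT mice replicate 4 had the highest class II sum (13.3 CPM, against 3.73 to 7.25 CPM in the others), and the same library held the highest sum of choroid plexus markers (3227 CPM). The part of that tissue in its class II level was not tested.

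The genes whose deviations from the group mean were most like those of the 4 class II genes over the 16 aged libraries were 2410018L13Rik (r = 0.841), Commd10 (0.840), Cmtm7 (0.837), Prtn3 (0.824) and Aup1 (0.813). Without APP JQ1 replicate 4 (n = 15) they were Diaph3 (0.838), Pde6d (0.818), H2-DMa (0.807), Gm15429 (0.801) and Mettl26 (0.791), so the leading names rest on 1 library. Among the other members r with the class II mean ran from 0.631 (H2-K1) to 0.795 (B2m), whereas it was 0.297 for Ciita, the class II transactivator, and 0.137 for P2ry12, a microglial receptor. Without replicate 4 these were 0.587 (Psmb9) to 0.731 (Tap1) among the members, -0.08 for Ciita and -0.19 for P2ry12. For the 3 class I genes the most similar were Gng5 (0.883), Irgm1 (0.878), Psmb8 (0.878), Arl5c (0.875) and Irf7 (0.862). Without replicate 4 they were Irf7 (0.884), H2-Q6 (0.877), Gng5 (0.873), Arl5c (0.873) and Psmb8 (0.848). Irf7 encodes an interferon regulatory factor. These correlations over 16 libraries that share depth and dissection are a description, chosen from all genes tested as the highest.

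The rest of the pathway was described with lists of named genes. Among other class I and class I-like heavy chains, 5 of 17 tested were called higher in APP vehicle than in WT mice and none lower (median 0.74 on the log2 scale). H2-Q6 (3.53 ± 0.63, edgeR adjusted p = 0.00828), H2-Q4 (1.84 ± 0.38; 0.0115), H2-T24 (0.98 ± 0.22; 0.0182), H2-Q7 (2.68 ± 0.64; 0.0319) and H2-T23 (1.33 ± 0.33; 0.0372) rose. H2-Q6, H2-Q4 and H2-Q7 share 35.0%, 36.9% and 28.5% of their 50-base windows with other genes, so their separate values are uncertain. Of the 7 peptide loading genes, Tap2, the partner of Tap1 (0.71 ± 0.16; 0.0199), and Tapbp, which bridges class I to the transporter (0.52 ± 0.14; 0.0498), were called higher, with a list median of 0.32. None of the 14 constitutive proteasome core subunits was called in either direction (median -0.15), and none of the 3 other inducible proteasome genes (median 0.18). For comparison the 10 members had a median of 1.95 and all genes one of 0.009, and 2.49% of all genes were called higher.

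On the class II side, 5 of 8 other genes tested were called higher in APP vehicle than in WT mice (median 1.62). Ctss, the protease that trims the invariant chain, rose by 2.26 ± 0.40 on the log2 scale (edgeR adjusted p = 0.00922). H2-Oa (2.85 ± 0.55; 0.00922), H2-Ob (2.32 ± 0.47; 0.0103) and H2-DMb1 (2.08 ± 0.51; 0.0364), whose products govern peptide exchange on class II, and the lysosomal protease Lgmn (0.64 ± 0.13; 0.0103) rose as well. Of 18 regulators 2 were called higher (median 0.32), namely Irf8, a transcription factor of myeloid cells (2.33 ± 0.38; 0.00828), and Nlrc5, the class I transactivator (2.20 ± 0.51; 0.0266). Ciita did not pass the test (0.78, edgeR adjusted p = 0.344), with levels of 1.60 to 2.39 CPM in WT and 1.97 to 4.40 CPM in APP vehicle mice. Cd86, a costimulatory ligand, rose by 1.90 ± 0.34 (0.00828) as 1 of 3 receptor and costimulation genes tested. Without APP JQ1 replicate 4 the regulators called were 4 of 18, with Irf9 (0.65) and Stat2 (0.30) in addition. Of all genes tested 2.49% were called higher, or 3.32% without that library.

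In JQ1-treated APP mice against WT the same lists gave 2 of 17 class I heavy chains (H2-Q6, 2.89, edgeR adjusted p = 0.0223; H2-T24, 1.24, 0.0116), 3 of 8 class II genes (Ctss, Lgmn and H2-Ob), 1 of 18 regulators (Irf8), Cd86, and no gene of the peptide loading or proteasome lists. Without replicate 4 it was 4 of 17 class I heavy chains (H2-Q4 and H2-T23 in addition), 1 of 7 peptide loading genes (Tapbp), 5 of 8 class II genes (H2-Oa and H2-DMb1 in addition), 4 of 18 regulators (Nlrc5, Irf9 and Stat2 in addition), Cd86, and again no gene of the proteasome lists. Of all genes, 2.06% were called in JQ1-treated APP against WT mice, or 3.84% without replicate 4. Between JQ1 and vehicle in APP mice no gene of any of these lists was called by edgeR, with or without replicate 4, against 1.08% and 0.431% of all genes. Nlrc5 (-0.39 on the log2 scale, edgeR adjusted p = 0.668) and Ciita (-0.38; 0.578) did not pass the test, and the list medians ran from -0.30 (other class II genes) to 0.12 (peptide loading).

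**Figure D4:**
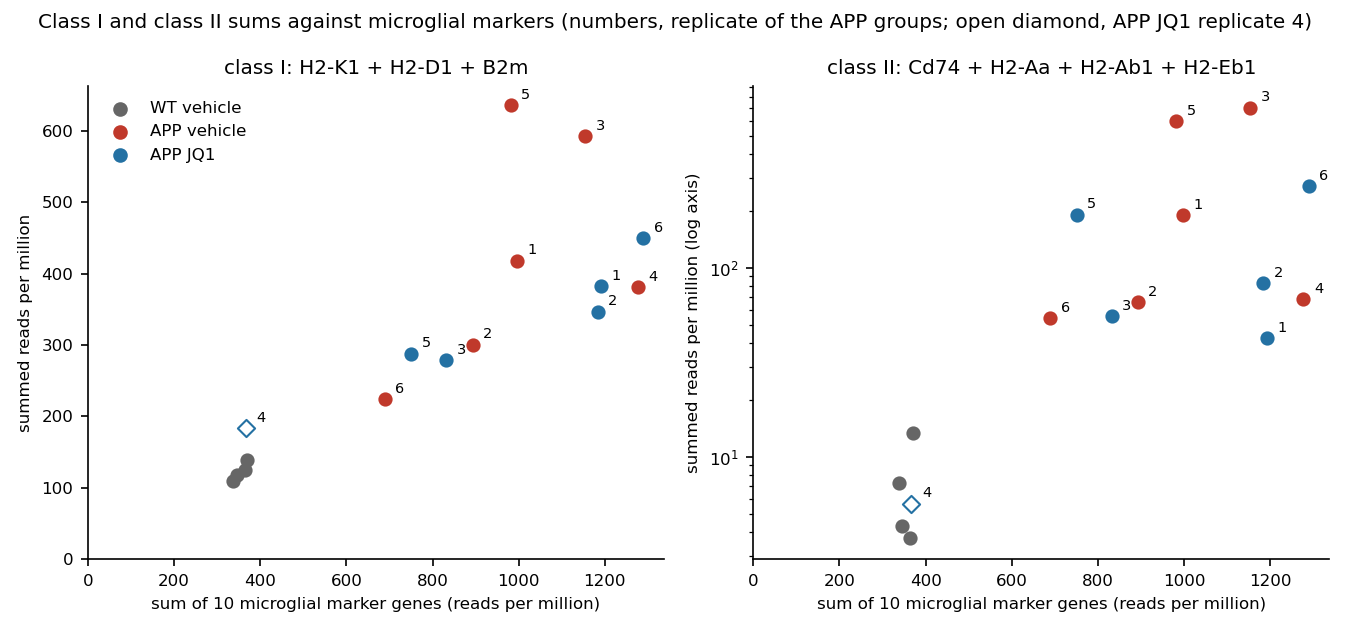
Summed CPM of the class I members (left) and class II members (right) against the summed CPM of 10 microglial markers in each aged mouse, numbers marking replicates of the APP groups. Both sums are lowest in WT mice and APP JQ1 replicate 4, and the class II sum differs widely between mice of like microglial sum.

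Microglial markers moved with the genotype. Of 10 such markers 6 were called higher in APP vehicle than in WT mice (median 1.22 on the log2 scale), against 2.49% of all genes. Among them were Trem2 (2.78) and Tyrobp (3.17), which signal together in plaque-associated microglia. The sum of the 10 markers was 338 to 370 CPM in WT vehicle, 689 to 1277 CPM in APP vehicle and 751 to 1290 CPM in APP JQ1 mice, with replicate 4 (367 CPM) apart at the WT level. In bulk tissue, more cells of a type and more RNA per cell cannot be told apart. Per unit of this sum, the class I members stood at 0.325 to 0.374 in WT vehicle, 0.298 to 0.648 in APP vehicle and 0.293 to 0.384 in APP JQ1 mice without replicate 4, so the ranges overlapped, and replicate 4 stood at 0.498. The class II members stood at 0.0102 to 0.0360, 0.0533 to 0.611 and 0.0356 to 0.255 by the same measure, and at 0.0154 in replicate 4. Class II was thus higher per microglial transcript in every APP vehicle mouse than in any WT mouse. Astrocyte markers also differed: their sum was 1835 to 2151 CPM in WT vehicle, 3018 to 7247 CPM in APP vehicle and 3520 to 6914 CPM in APP JQ1 mice, with replicate 4 at 2193 CPM. Of these 4 markers Gfap, which marks reactive astrocytes, was called higher in APP vehicle than in WT mice (3.18 on the log2 scale). The part of either cell type in the levels of the members was not tested. No microglial marker was called between JQ1 and vehicle in APP mice (median -0.10, or 0.06 without replicate 4).

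Among markers of other cells, the dendritic cell list summed to 21.2 to 27.1 CPM in WT vehicle, 34.6 to 61.7 CPM in APP vehicle and 31.4 to 53.8 CPM in APP JQ1 mice, with replicate 4 at 22.98 CPM, and WT and APP vehicle mice did not overlap. Of this list Itgax, which plaque-associated microglia also raise, was called higher in APP vehicle mice (5.93 on the log2 scale), from 0.292 to 0.515 CPM in WT vehicle to 8.82 to 37.8 CPM in APP vehicle mice. Flt3 and Zbtb46 overlapped between these groups, and Xcr1, Clec9a, Cd209a and Ccr7 stayed below 1 CPM. The 5 B cell markers summed to at most 0.943 CPM in any aged mouse, and Ms4a1 was at 0 in 13 of 16 libraries. The T and NK cell markers summed to 2.02 to 7.87 CPM, most of it Lck, and overlapped between all groups. The markers of border macrophages summed to 3.55 to 9.73 CPM in WT vehicle and 7.38 to 15.2 CPM in APP vehicle mice, and none was called. The part of these cells in the class II levels was not tested.

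**Figure D5:**
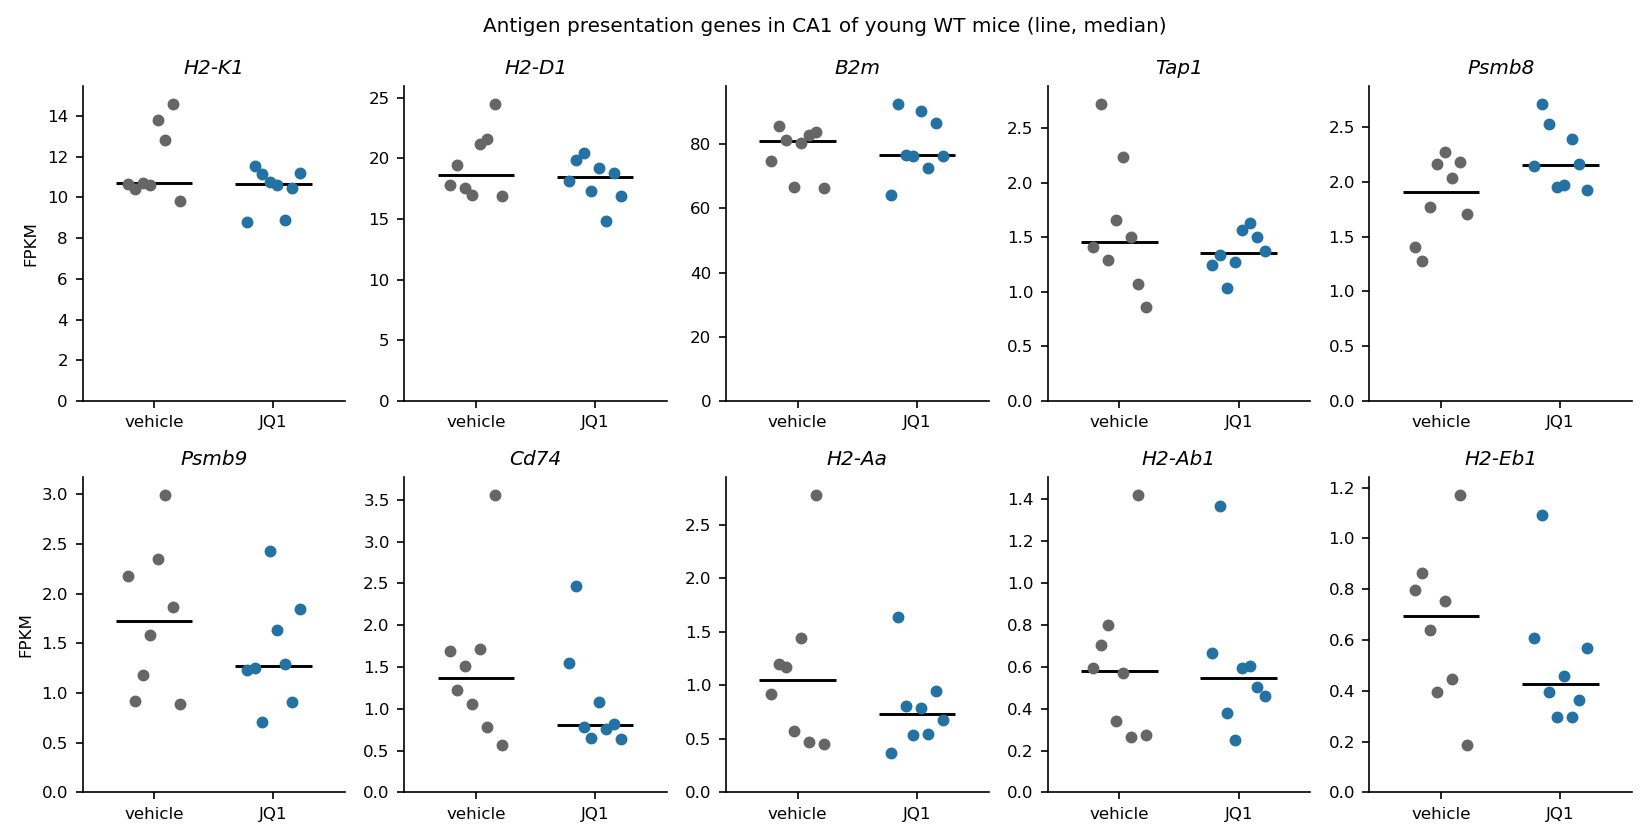
FPKM of each member in every young WT mouse given vehicle (n = 8) or JQ1 (n = 8), on linear axes from 0, with lines at the medians. The groups overlap for all 10 members, and single mice stand high for class II genes in both groups.

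Young WT mice without transgenes were used to ask the same question of JQ1. None of the 10 members was called by limma on log2(FPKM + 0.1), and all 10 overlapped between JQ1 and vehicle, where 0.0109% of all loci were higher and 0.0163% lower without overlap. Of all loci tested 0.00543% were called (1 of 18420), and 857 loci and 1 member, Psmb8, had an unadjusted p under 0.05. Psmb8 stood at 1.28, 1.90 and 2.27 FPKM (lowest, median, highest) in vehicle-treated and at 1.92, 2.15 and 2.71 FPKM in JQ1-treated mice. The JQ1 values were shifted upward with overlap, by 0.27 ± 0.12 on the log2 scale (1.203-fold, 1.01 to 1.43; limma adjusted p = 0.981), and the exact permutation p was 0.04398. H2-K1 had medians of 10.7 FPKM in both groups, H2-D1 medians of 18.6 FPKM (vehicle) and 18.5 FPKM (JQ1), and B2m medians of 80.9 FPKM and 76.6 FPKM. Their differences were -0.15 ± 0.09, -0.09 ± 0.08 and 0.03 ± 0.08 on the log2 scale, the narrowest errors among the members.

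Tap1 and Psmb9 lie in loci with the same start and end in these files and differed by -0.14 ± 0.18 and -0.26 ± 0.26. Class II was low, with Cd74 at 0.573, 1.37 and 3.55 FPKM (lowest, median, highest) in vehicle-treated and 0.639, 0.805 and 2.48 FPKM in JQ1-treated mice. Cd74 differed by -0.39 ± 0.32 (0.761-fold, 0.478 to 1.21; exact permutation p = 0.273). H2-Aa (-0.36 ± 0.32), H2-Ab1 (0.00 ± 0.31) and H2-Eb1 (-0.28 ± 0.29) had medians of 0.426 to 1.05 FPKM over both groups. On this scale a pseudocount of 0.1 shrinks changes of such low loci. The adjusted p lay between 0.9807 and 0.9998 for all members, and whether JQ1 acted differently in young WT and aged APP mice was not tested, since the files differ in unit.

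In young mice the class II genes were highest in the same pair of animals, JQ1 replicate 2 and vehicle replicate 7, and so were the 5 genes most like them over 16 libraries: Gjb2 (r = 0.920), Slc6a13 (0.891), Slc6a20a (0.891), Igf2 (0.885) and Vtn (0.885). Slc6a13 and Igf2 are known from the meninges. Slc6a13 stood at 5.62 FPKM in JQ1 replicate 2 and 8.09 FPKM in vehicle replicate 7, where the next highest values of their groups were 4.34 and 5.25 FPKM. Meningeal markers summed to 45.2 FPKM in JQ1 replicate 2, within the range of its group (29.9 to 73.4), and to 80.5 FPKM in vehicle replicate 7, the highest of its group. The part of this tissue in the class II values was not tested. The other members followed the class II mean less closely in young mice, with r from 0.006 (Psmb9) to 0.556 (B2m). Among the genes most like the 3 class I members were Mxra8 (r = 0.928), Clec2d (0.876), Llph (0.870) and Sec61g (0.855). In the other pathway lists no gene was called in young mice.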

How the data were processed

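CA1 RNA was sequenced on an Illumina HiSeq. For the aged mice the authors aligned reads to mm10 with STAR and deposited read counts per gene from HTSeq. For the young mice the authors deposited FPKM values per locus (fragments scaled by length and library size) from Cufflinks and Cuffdiff, so their depth is unknown. The submitters' processing notes also name CASAVA 1.8.2 and TopHat. Labels covered 33 samples and 32 had a file analysed here. They do not state that each is a separate animal, so p-values measure the spread between samples.

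The 16 aged libraries entered 1 edgeR quasi-likelihood fit of 3 groups (edgeR 4.0.16, TMM, filterByExpr, robust, R 4.3.3), without rows that name no gene. SE was taken as the log2 fold change over the root of the F statistic, and 95% intervals from the t quantile at the degrees of freedom behind each p. Young values were tested with limma 3.58.1 (trend, robust) on log2(FPKM + 0.1), over loci with at least 0.5 FPKM in 8 of 16 mice, a scale that understates the change of low loci. P-values were adjusted by Benjamini-Hochberg over all genes of a comparison, with a threshold of 0.05. Single genes were also tested with exact two-sided permutations (scipy 1.17.1). CPM are counts over all reads on genes, and RPKM also divide by exon length (GENCODE M21). In each library 15.4 to 26.9% of uniquely aligned reads lay on no gene and 1.51 to 1.93% were ambiguous. Replicates were compared first, and every pair differed by more than sampling noise. The fits were tested on simulated data.

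The members and lists were chosen with earlier results of these data known. All 10 members were named in every comparison. Other lists were given by counts and medians, and their genes with an adjusted p under 0.05 were named, at most the 5 with the smallest p, as were the 5 genes most like the class II and class I members by Pearson r of deviations from group means. Alternatives were DESeq2 1.42.0, size factors of DESeq2's kind, no filter or at least 10 counts, the groups of a comparison alone, GC content and length, replicate block, pseudocounts of 0.01 and 1, a minimum of 1 FPKM, and single libraries left out. After the data were seen, libraries with over 100 CPM of albumin were left out together, and APP JQ1 replicate 4 was left out under other settings. A few genes that these rules would name are not reported here.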

Additional observations from a re-analysis of the deposited data

Results flagged for a closer look

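In 6 of 50 sets of a member in a group of mice, 1 mouse stood far from the others, where chance flags about 1 in 20 sets. All 6 flagged sets were class II genes in young WT mice and came from the same pair of animals. Class II genes vary together between mice, so the sets are not independent and their count cannot be set against that rate. In vehicle replicate 7, Cd74 stood at 3.55 FPKM (next highest 1.72), H2-Aa at 2.77 FPKM (next 1.44) and H2-Ab1 at 1.42 FPKM (next 0.798). In JQ1 replicate 2, H2-Aa stood at 1.64 FPKM (next 0.949), H2-Ab1 at 1.37 FPKM (next 0.666) and H2-Eb1 at 1.09 FPKM (next 0.607).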

How the results depend on the processing

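Between JQ1 and vehicle, 0 of the members tested were called under every setting run, in APP and in young mice, and no called member changed direction in any comparison. Not all 10 were tested in each: 7 were left in APP mice with at least 10 counts in every sample. In young mice 4 were left with at least 1 FPKM in every sample, and 9 in some fits without a single library. Of members called higher in APP vehicle than in WT mice, the main count of 7 (436 genes in all) ran from 3 to 9 with single libraries left out (154 to 601 genes). It was 10 with DESeq2 (792 genes) and 5 with no filter (354 genes). In JQ1-treated APP against WT mice the count of 3 (349 genes in all) ran from 0 to 6 with single libraries left out (11 to 651 genes). It was 9 with DESeq2 (790 genes) and 10 with DESeq2 without APP JQ1 replicate 4 (1042 genes). With GC content and length and without that library it was 7 (1035 genes). Between APP JQ1 and APP vehicle, same-numbered mice had a mean r of deviations of 0.124 (-0.107 to 0.342, 3 of 6 pairs over 0.1). Mice of different numbers had a mean of -0.02 (9 of 30 pairs over 0.1). Against WT vehicle the same-numbered means were -0.22 (APP JQ1) and -0.05 (APP vehicle). The numbers were not taken as pairs in the main fit, and whether some of them are pairs is not known. With the replicate block, 1 member (35 genes in all) was called in APP vehicle and 0 (21 genes) in JQ1-treated APP against WT mice. With GC content, length and the block it was 0 (29 genes) and 0 (36 genes). With the block and without APP JQ1 replicate 4 it was 5 (484 genes in all) and 3 (463 genes). Over all genes, JQ1 against vehicle gave 184 calls in APP mice, 749 with DESeq2, 87 with the block and 39 with GC content and length, APP vehicle against WT gave 436, 792, 35 and 455, and JQ1-treated APP against WT gave 349, 790, 21 and 516. With GC content and length the median log2 fold change of all genes was -0.07 in APP vehicle and -0.08 in JQ1-treated APP against WT mice, from 0.009 and 0.001. The cause of these changes was not tested. With 4 WT mice, and class II genes that vary over 10-fold between APP mice, class II limits were wide: a 27.2-fold (H2-Ab1) and a 20.3-fold (H2-Eb1) difference from WT missed the threshold, as did the 0.354-fold value of H2-Aa with JQ1.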

Other observations

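The class II sum over the class I sum, in CPM, ranged from 0.0300 to 0.0963 in WT vehicle mice and from 0.179 to 1.19 in APP vehicle mice. H2-Ea-ps, the pseudogene of the alpha chain partner of H2-Eb1, was at 0 in all WT vehicle and APP vehicle libraries and at most 0.0685 CPM in APP JQ1 libraries, below the floor of 3 reads. Among other class I-like heavy chains, H2-Q2 differed between JQ1 and vehicle in APP mice by -2.30 ± 0.66 on the log2 scale, with an edgeR adjusted p of 0.0888, or 0.160 without APP JQ1 replicate 4. H2-Q10, which liver expresses, differed by 2.90 ± 1.77 (edgeR adjusted p = 0.422), and its 4 highest libraries, at 48.0, 34.7, 11.7 and 4.37 CPM, were the 4 with albumin over 100 CPM.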
